A study of Homo sapiens with 6 samples.

Results

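Breast carcinomas of the basal-like subtype express genes that normally mark the basal layer of the mammary duct. This report follows 8 genes that are used as marks of that subtype or of epithelial lineage in breast tumors, out of the 758 genes of the deposited table: the keratin genes KRT5, KRT7, KRT14 and KRT17, the P-cadherin gene CDH3, the transcription factor gene FOXC1, the secreted protein gene MIA and the serine synthesis gene PHGDH. They were picked by name, with earlier results of these data known. All of them but KRT7 belong to PAM50, the gene panel used to sort breast tumors into intrinsic subtypes.

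The cells were JIMT-1, an established human HER2+ breast cancer line that came from a tumor resistant to trastuzumab. Exposure lasted 24 h, with 250 µM aCT1 in 3 samples and PBS alone in the 3 control samples, called CTL. aCT1 is a peptide that copies the end of connexin 43 and is joined to an antennapedia sequence that carries it into cells, whereas CTL cells received no peptide at all, so the carrier sequence was absent from the control. RNA was counted on the nCounter platform, where each target RNA molecule binds a barcoded probe and is counted without amplification. All results are from 1 cell line, the labels do not say whether the samples were separate cultures, and the p-values therefore measure the spread between these samples.

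Keratins form the intermediate filaments of epithelial cells and work as pairs of a type II chain, such as K5, with a type I chain, such as K14. K5 with K14 is the pair of basal and myoepithelial cells, K17 accompanies it in basal-like tumors and in wounded epithelium, and K7 is the type II keratin of glandular and ductal epithelium. P-cadherin joins neighboring basal cells, and FOXC1 is a forkhead factor that marks basal-like breast cancer. MIA is a small secreted protein first described in melanoma, and PHGDH catalyzes the entry step from glycolysis into serine synthesis.

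In the annotation of GRCh38.p14, KRT5 (chr12:52514575-52520394) and KRT7 (chr12:52233243-52255853) lie in the type II keratin cluster, with 258.7 kb between them. KRT14 (chr17:41582279-41586895) and KRT17 (chr17:41619442-41624575) lie 32.5 kb apart in the type I cluster. The other genes are CDH3 (chr16:68645310-68733771), FOXC1 (chr6:1609915-1613897), MIA (chr19:40775160-40777490) and PHGDH (chr1:119711934-119744215). The panel reads each gene through 1 probe. KRT14 and KRT17 have close relatives and pseudogenes, so a share of their few counts could come from a similar transcript.

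The values are normalized counts, that is, barcode counts multiplied by 1 factor per sample that the authors set from housekeeping genes. The recovered totals ran from 1437572 to 1494919 counts per sample, so depth was nearly even. Of the markers of other cells, 16 blood-cell genes had a mean of 6.46 to 41.9 normalized counts, with a median of 15.5. Their sum ran from 256 to 309 in CTL and from 252 to 340.4 in aCT1. Among 10 stromal and endothelial genes, 8 had a mean under 20, and the summed level was 455 to 479 in CTL and 419 to 487 in aCT1. Epithelial markers were present, with CDH1 at 5869 ± 201 normalized counts in CTL (SD, n = 3), and ERBB2, the HER2 gene, at 9316 ± 239. ESR1, the estrogen receptor gene, had 115 ± 18.5. CPA3 and MS4A2, both mast cell genes of the blood-cell list, were higher in aCT1 at an unadjusted p under 0.05 and CD163 was lower, all at means of at most 16.4 counts in either group. The samples were of 1 cultured cell line, and the source of the readings for genes of other cell types was not tested.

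The 8 genes formed 2 groups by level. KRT5, KRT7, CDH3, FOXC1 and PHGDH had means between 1214 and 7732 normalized counts, and all 16 blood-cell genes were below each of them. KRT14, KRT17 and MIA had means of 21.2, 14.2 and 15.8. Of the 16 blood-cell genes, 5 had a mean at least as high as KRT14, 10 as high as KRT17 and 8 as high as MIA. The name of the group thus holds only in part for this line: KRT5 was measured far above that low level, while its usual partner KRT14 was not, and KRT17 and MIA were not either. Probes differ in efficiency, so the counts place each gene near or away from the low level and do not rank the amounts of RNA.

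**Figure D1:**
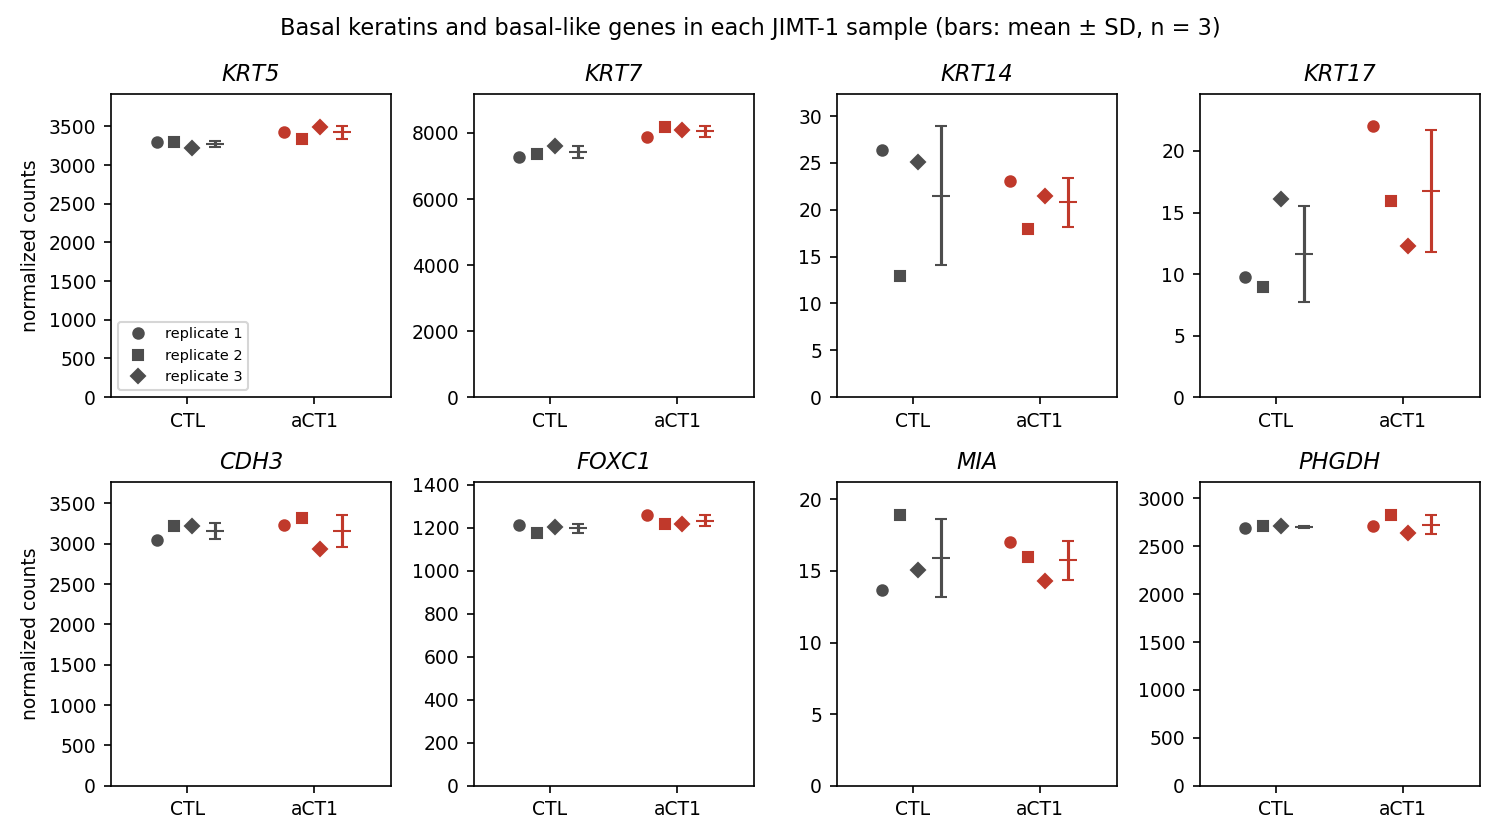
Normalized counts of each gene (vertical axes start at 0 and differ between panels) in the 3 CTL and the 3 aCT1 samples, with a symbol per replicate number and bars for the mean ± SD (n = 3). KRT7, KRT5 and FOXC1 have all aCT1 points above all CTL points, and KRT14, KRT17 and MIA lie under 30 counts in every sample.

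The comparison of aCT1 with CTL asked whether the peptide shifts these genes after 24 h. None of the 8 genes passed the test at a limma adjusted p under 0.05, and neither did any other gene of the table (0 of 758, or 0%). At an unadjusted limma p under 0.05, 1 of the 8 genes was counted, KRT7, beside 71 of 758 genes, or 9.37%. Of these 71 genes 69.0% were higher in aCT1. With each sample centred on its median, 93 genes had such a p, and 4.30% of them were higher. With quantile normalization there were 83 such genes, 49.4% of them higher. In the direction of KRT7, higher in aCT1, the share over the whole table was 6.46%. Counted by separation, 3 of the 8 genes (KRT7, KRT5 and FOXC1) had all 3 aCT1 values above all 3 CTL values, where 9.37% of all genes did so and 14.2% were separated in either direction. Both counts are of too few genes to be read as more than the values of these genes. The median log2 fold change over the 8 genes was 0.028, against 0.018 over all genes. Centring each sample on its median over all genes lowers every log2 fold change by 0.098.

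KRT7 differed most among the 5 genes with many counts. Its CTL samples held 7260, 7377 and 7612 normalized counts, and its aCT1 samples 7866, 8177 and 8099. Every aCT1 sample was above every CTL sample, by 3.34% at the nearest pair. The log2 fold change was 0.12 (SE 0.028, limma unadjusted p = 0.00104, adjusted p = 0.189), an increase of 8.52% with a 95% interval from 4.04% to 13.2%. In the order of p-values over the table KRT7 stood in place 3 of 758. The difference depended on the scaling: with that median centring it was 0.020 (limma unadjusted p = 0.698). It was 0.11 with quantile normalization (limma unadjusted p = 0.00736). Centring on genes of at least 50 counts, chosen after seeing the data, gave 0.12.

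KRT5 showed a smaller difference in the same direction. Its CTL samples held 3294, 3295 and 3224 normalized counts, and its aCT1 samples 3434, 3335 and 3499. The groups did not overlap, and aCT1 replicate 2 was 1.22% above CTL replicate 2, the nearest pair. In recovered counts, before scaling, they did overlap, with aCT1 replicate 2 at 3347 and CTL replicate 1 at 3366. The log2 fold change was 0.065 (SE 0.030, limma unadjusted p = 0.0506, adjusted p = 0.526), with a 95% interval from -0.00020 to 0.13. Among the fits that dropped a sample, the highest value was 0.084, without aCT1 replicate 2 (limma unadjusted p = 0.0240). The lowest was 0.049, without aCT1 replicate 3 (limma unadjusted p = 0.177). Of these fits, only the one without aCT1 replicate 2 had an unadjusted p under 0.05. Median centring gave KRT5 a log2 fold change of -0.032 (unadjusted p = 0.571), the opposite direction. An increase above 9.48% lies outside the interval of the fit on the deposited values.

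FOXC1 was separated by a narrower margin. The CTL values were 1211, 1173 and 1203 normalized counts, and the aCT1 values 1260, 1219 and 1216. The lowest aCT1 sample exceeded the highest CTL sample by 0.388%, less than the span of 3.24% within CTL. Counting alone gives the log2 fold change of FOXC1 a standard error of 0.034. In recovered counts, before scaling, the groups overlapped, with aCT1 replicate 3 at 1190 and CTL replicate 1 at 1238. The log2 fold change of 0.042 (SE 0.038, adjusted p = 0.823) had an interval from -2.69% to 8.98%, and it was -0.055 with median centring, 0.017 with quantile normalization and 0.026 without aCT1 replicate 1. For a single gene of 3 samples against 3, the two-sided exact permutation p cannot fall below 0.1, which is its value for KRT7, KRT5 and FOXC1.

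CDH3 showed the same mean level in both groups. Its values were 3048, 3214 and 3217 in CTL and 3235, 3316 and 2938 in aCT1. The aCT1 group held both the highest and the lowest of the 6 values, with a span of 12.9% against 5.54% in CTL. The log2 fold change was -1.21e-05 (SE 0.043, adjusted p = 1.000), and the 95% interval ran from -6.21% to 6.62%. Without aCT1 replicate 3, the lowest sample, it was 0.052 (unadjusted p = 0.182).

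PHGDH had nearly equal means, and its aCT1 values lay further apart than its CTL values. Its CTL samples were within 0.757% of one another, at 2693, 2711 and 2713 normalized counts, whereas aCT1 samples ranged from 2641 to 2832, with the third at 2710. The log2 fold change was 0.011 (SE 0.033, adjusted p = 0.965), with an interval from -4.11% to 5.89%. Counting alone gives it a standard error of 0.023. The log2 SD of the 3 CTL values was 0.0059, smaller than that counting error, and that of the 3 aCT1 values was 0.051. Whether the spread differs between groups was not tested. The same aCT1 samples were extreme for both genes: replicate 2 was highest and replicate 3 lowest for CDH3 and for PHGDH. KRT5 ran the other way, with its highest aCT1 value in replicate 3 and its lowest in replicate 2. The downstream enzyme gene PSAT1, which acts right after PHGDH in serine synthesis, had 7425 ± 199 normalized counts in CTL and 7534 ± 326 in aCT1, and SHMT2, which converts serine to glycine in mitochondria, had 885 ± 52.2 and 893 ± 32.7 (SD, n = 3).

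**Figure D2:**
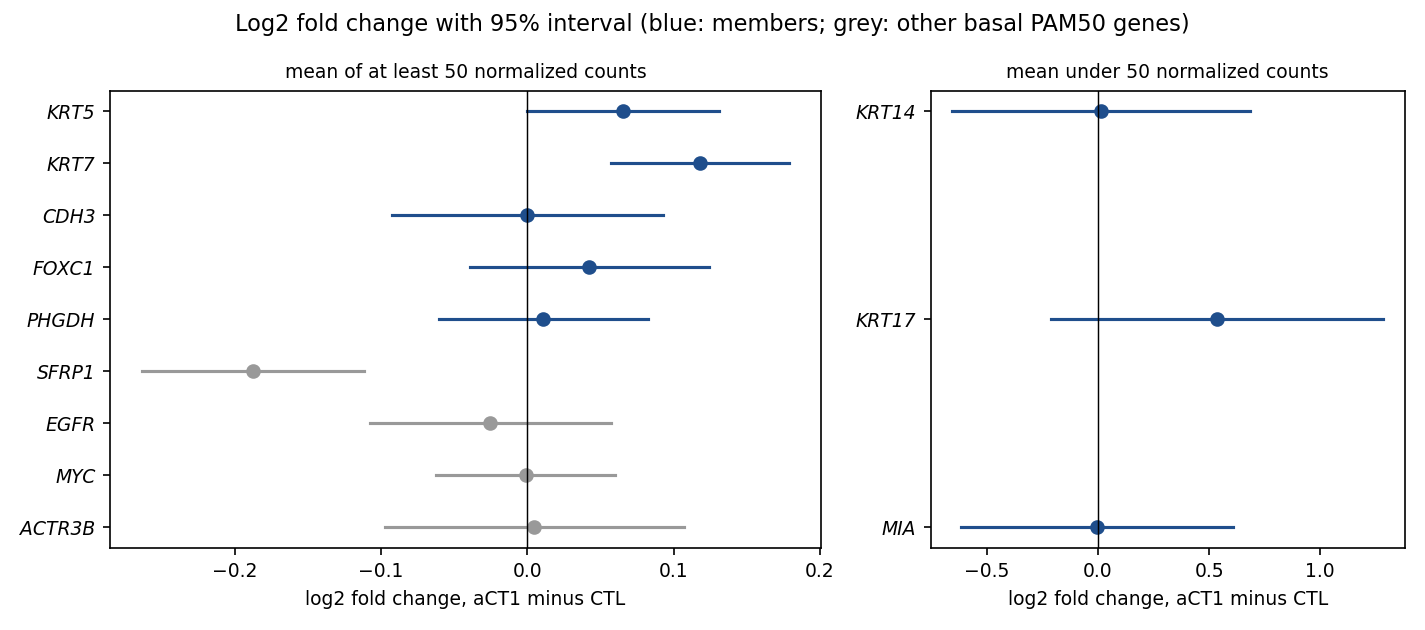
Log2 fold change of aCT1 over CTL (horizontal axes, points) with its 95% interval from limma (lines) for the 8 genes in blue and for 4 other PAM50 basal genes in grey, with separate scales for genes above and below a mean of 50 normalized counts. Of the 8 genes, the interval of KRT7 alone lies clear of 0 (0.057 to 0.18), and the intervals of KRT14, KRT17 and MIA are several times wider than those of the genes with many counts.

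For the 3 genes with few counts the data set only wide limits. KRT17 had 10, 9 and 16 recovered counts in CTL and 22, 16 and 12 in aCT1. After normalization CTL replicate 3 lay above aCT1 replicates 2 and 3, so the groups overlapped. The log2 fold change of 0.54 (SE 0.35, adjusted p = 0.704) was the largest of the 8 genes and had an interval from -13.6% to 143%. It was 0.32 without aCT1 replicate 1 and 0.80 without CTL replicate 3, and 0.31 with a pseudocount of 10. Counting alone gives it a standard error of 0.33. At this level such a value was not unusual, since 3 of the 16 blood-cell genes had a fold change at least as large in size.

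KRT14 had 27, 13 and 25 recovered counts in CTL and 23, 18 and 21 in aCT1. Its CTL samples spanned the aCT1 samples, and the log2 fold change was 0.014 (SE 0.31, interval -36.5% to 60.7%). It was -0.32 without CTL replicate 2, the lowest sample. MIA had 14, 19 and 15 recovered counts in CTL and 17, 16 and 14 in aCT1. Its log2 fold change was -0.0038 (SE 0.28, interval -34.7% to 52.4%), and -0.72 (SE 0.67) after background subtraction. That setting took each sample's median blood-cell value off every gene and put a floor under the result. Only CTL replicate 2 of MIA stayed above the floor, so the value of -0.72 rests on that sample. A difference of KRT14 or MIA smaller than these intervals was not detectable at these counts. KRT6B, a keratin of activated and basal-like epithelium and the only other keratin measured from the list of 10, had a mean of 30.2 normalized counts in CTL and 38.8 in aCT1 (log2 fold change 0.36, SE 0.28, limma adjusted p = 0.755).

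**Figure D3:**
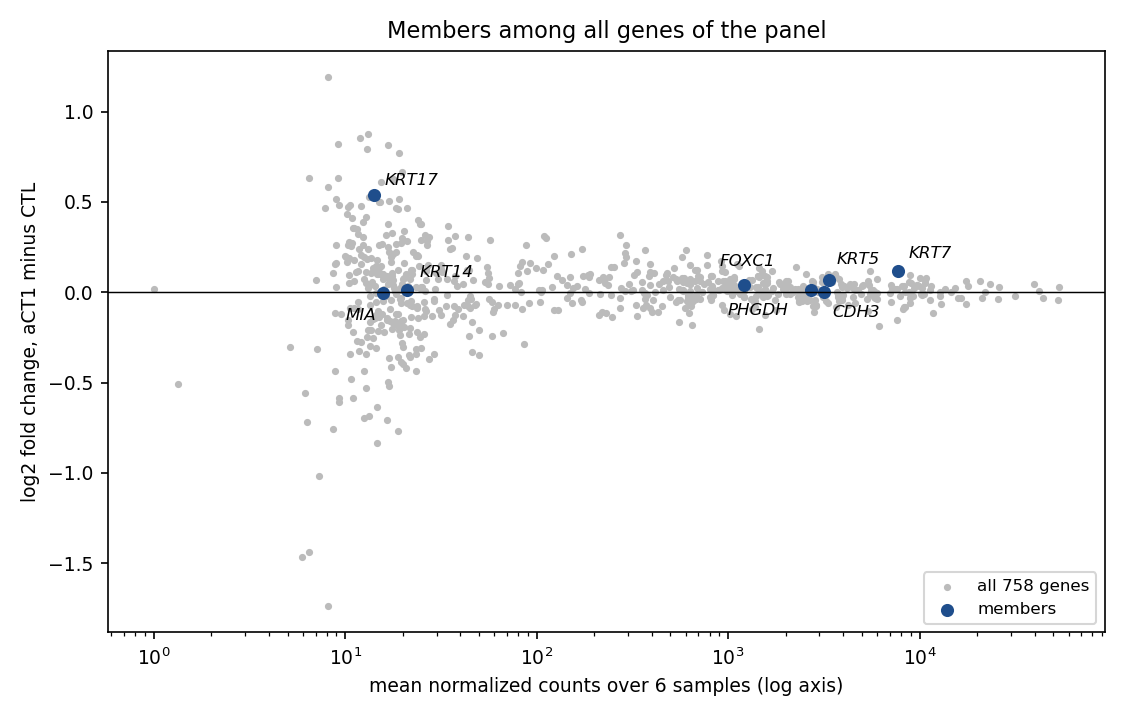
Log2 fold change of aCT1 over CTL (vertical axis) against the mean normalized count over 6 samples (horizontal axis, log scale) for all 758 genes in grey and the 8 genes in blue. The cloud widens below about 50 counts, where KRT14, KRT17 and MIA lie, and KRT7 sits at the upper edge of the narrow part.

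The ratio of 2 genes within a sample does not change with a factor applied to the whole sample, so it was used to compare the genes with many counts with one another. Of the 10 pairs among KRT5, KRT7, CDH3, FOXC1 and PHGDH, 2 had ratios that did not overlap between groups, and both hold KRT7. Over all pairs of the 433 genes with a mean of at least 50 normalized counts, 18.6% did not overlap, so the count among these genes is near the background. The log2 ratio of KRT7 over CDH3 was 1.23 ± 0.029 in CTL and 1.35 ± 0.099 in aCT1 (SD, n = 3). That of KRT7 over PHGDH was 1.45 ± 0.030 and 1.56 ± 0.048. Both had a two-sided exact permutation p of 0.1, the smallest possible, and 0.5 after adjustment over the 10 pairs. The ratio of KRT7 over KRT5 overlapped, at 1.18 ± 0.052 and 1.23 ± 0.053 (exact permutation p = 0.3, adjusted 0.667). These ratios compare probe readings between groups and are not ratios of RNA amounts.

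By the root mean square difference of centred log2 values over the 6 samples, among 433 genes with a mean of at least 50 normalized counts, the profile nearest to KRT5 was that of SFN, at 0.0098. SFN encodes 14-3-3 sigma, an epithelial cell cycle regulator. CAV1, the caveolin gene, followed at 0.014 and FOXM1, a factor of dividing cells, at 0.016. For KRT7 the nearest genes were TLE3, a corepressor, at 0.021, TBX1, a T-box factor, at 0.023 and RAD51C, a recombination repair gene, at 0.026. Likeness over 6 samples is a description and carries no test.

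Of the 4 other basal genes of PAM50, 1 was higher and 3 were lower in aCT1, with a median of -0.013, which was -0.046 without CTL replicate 3, -0.040 without aCT1 replicate 2 and -0.0048 without CTL replicate 2. SFRP1, a secreted Wnt antagonist, had 6551 ± 324 normalized counts (SD, n = 3) in CTL against 5750 ± 130 in aCT1. Its difference of -0.19 on the log2 scale (SE 0.035, unadjusted p = 0.000130, limma adjusted p = 0.0989) gave the smallest p of the table, and it passed the adjusted threshold under some of the alternatives. EGFR, the receptor tyrosine kinase, had 2328 ± 96.0 and 2287 ± 69.5, and its log2 fold change of -0.025 (adjusted p = 0.965) was within the replicate spread. MYC and ACTR3B had values of -0.0011 and 0.0049.

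**Figure D4:**
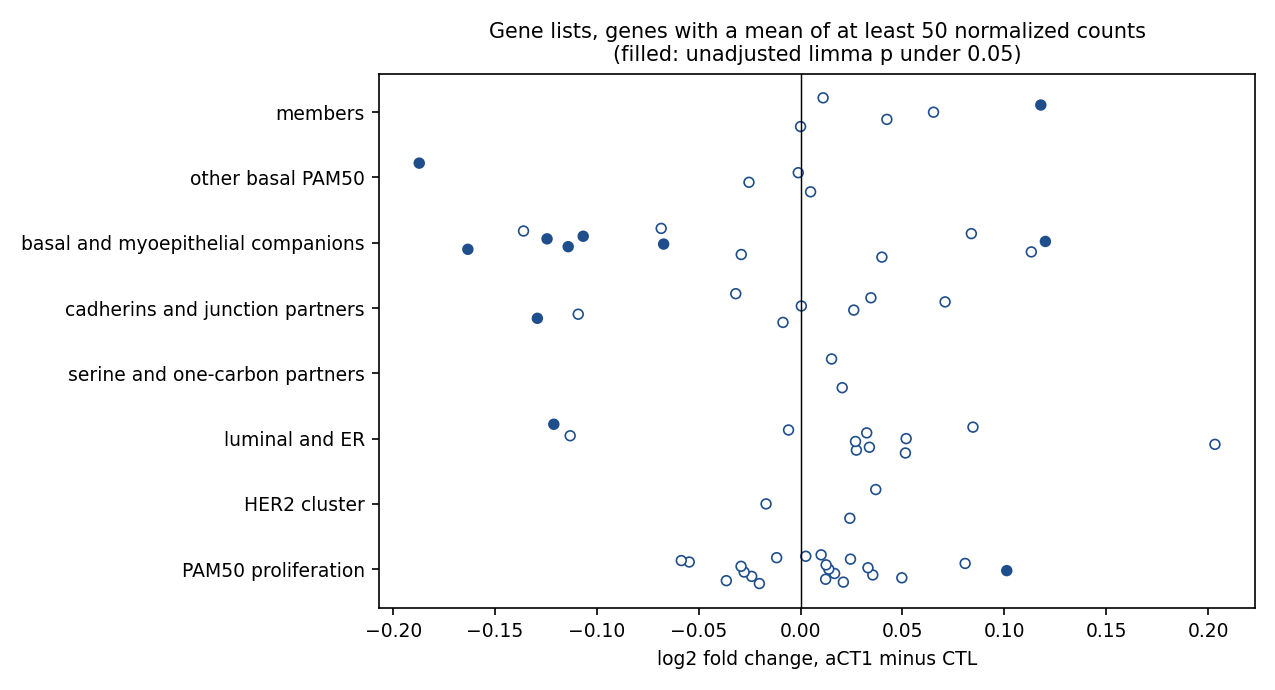
Log2 fold change of aCT1 over CTL (horizontal axis) of each gene with a mean of at least 50 normalized counts, 1 point a gene, by list, with filled points for an unadjusted limma p under 0.05. The filled points of the basal and myoepithelial companions lie at both ends, with 5 below 0 and 1 above.

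Beside PAM50, 20 of 33 listed genes of basal-like tumors or basal and myoepithelial cells were measured. None passed at an adjusted p under 0.05, and at an unadjusted p under 0.05 1 was higher and 5 were lower in aCT1, with a median log2 fold change of -0.025 over the list. Of all 758 genes, 6.46% were higher and 2.9% lower at that p. The median was 0.042 without CTL replicate 3 and 0.017 without aCT1 replicate 2, while it was -0.067 at a mean of at least 20 counts, -0.068 at a mean of at least 50 and -0.12 with median centring. The lower ones included ITGA6, the integrin alpha 6 chain that binds laminin (-0.11, adjusted p = 0.189), LAMB3, a laminin beta chain gene (-0.12, adjusted p = 0.247), and ID4, an inhibitor of differentiation factors (-0.16, adjusted p = 0.313). LAMA3, a laminin alpha chain gene, had a log2 fold change of 0.12 (adjusted p = 0.313), in the direction of KRT7. The neural crest factor SOX10, which marks many basal-like tumors, was listed at 1 recovered count in every sample. Over all genes 13 values were at 1 and no value was at 0, so 1 is the lowest listed value and cannot be told from 0.

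None of the 10 measured cadherin and junction genes passed the adjusted threshold. At an unadjusted p under 0.05 there was 1 of the 10, beside 9.37% of all genes, so the count is near the background. It was CDH2, which encodes N-cadherin (-0.13, limma adjusted p = 0.304). CDH1, which encodes E-cadherin, had a log2 fold change of -0.0087 (SE 0.034).

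Of 19 luminal and estrogen receptor genes measured, 13 were higher and 6 lower in aCT1, and none passed at an adjusted p under 0.05. Over all 758 genes, 446 were higher and 312 lower. The median log2 fold change of the 19 genes was 0.034, and it was -0.064 with median centring. A mean under 20 normalized counts was found for 6 of them. At an unadjusted p under 0.05, beside 9.37% of all genes, there were 2 of the 19: TMEM45B, a membrane protein gene with 13.9 ± 2.11 and 21.5 ± 3.83 normalized counts (SD, n = 3), and SLC39A6, a zinc transporter gene regulated by estrogen (-0.12, adjusted p = 0.334). ESR1 had a log2 fold change of 0.20 (SE 0.13). Of the HER2 cluster, ERBB2, GRB7 and FGFR4 had 0.024, 0.037 and -0.017, and none had an unadjusted p under 0.05. Among 21 proliferation genes of PAM50, 1 had an unadjusted p under 0.05, the kinesin gene KIF2C (0.10, adjusted p = 0.304), and the median of the list was 0.012.

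**Figure D5:**
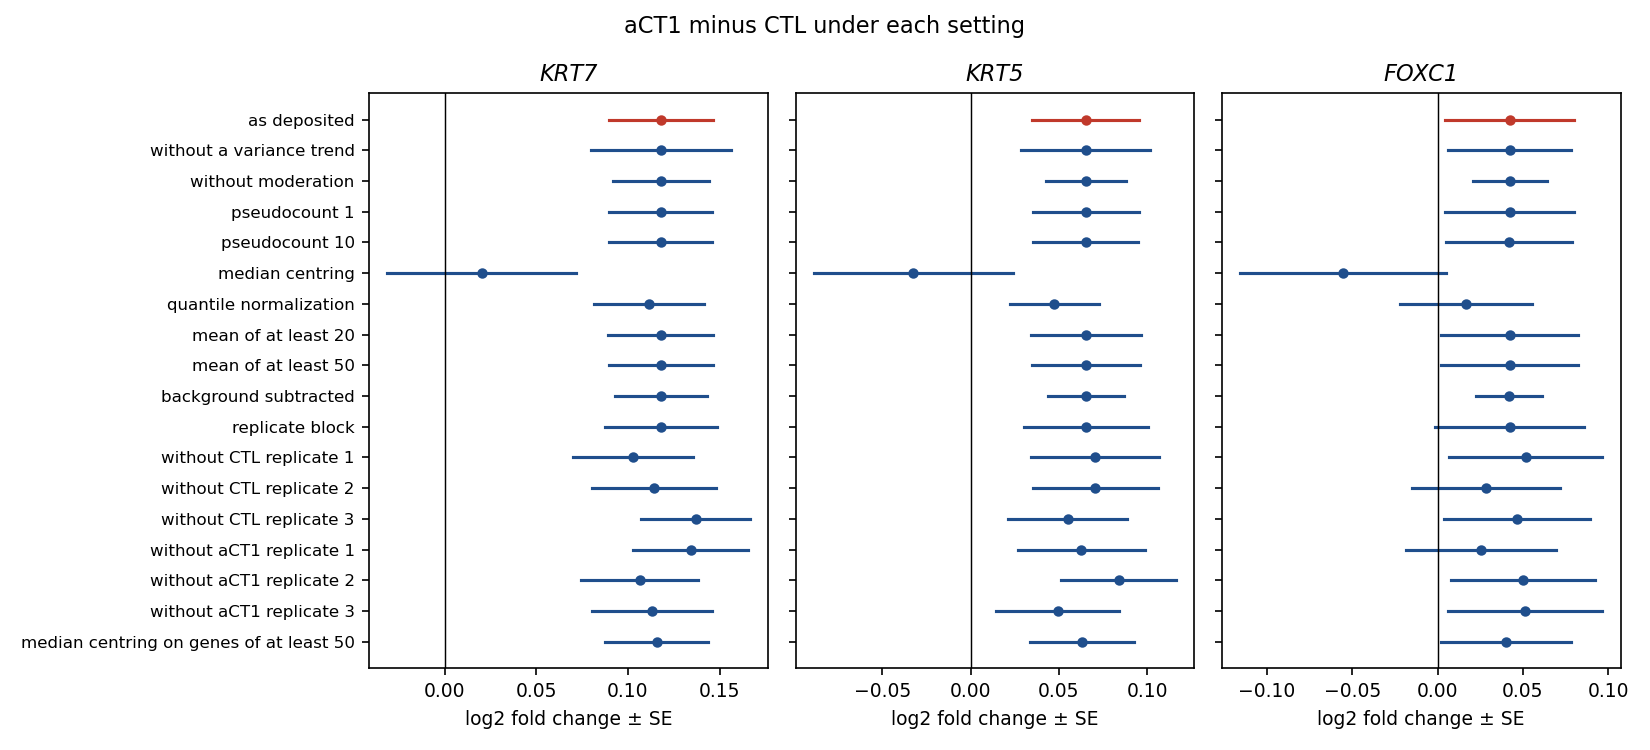
Log2 fold change of aCT1 over CTL ± SE (horizontal axes) of KRT7, KRT5 and FOXC1 under each way of processing the values (rows), with the deposited values in red. KRT7 lies between 0.10 and 0.14 except with median centring over all genes (0.020), the setting that also puts KRT5 and FOXC1 below 0.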

How the data were processed

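JIMT-1 RNA from 3 CTL and 3 aCT1 samples was counted with the nCounter Breast Cancer 360 panel. Barcode counts were scaled by the authors with housekeeping genes (nSolver), and both a linear signal and its log2 values were deposited. A background subtraction is not given in the sources used here. Within each sample 100% of linear values were whole multiples of 1 factor (within 0.001), which gave the recovered counts. Intervals from counting cover counting error alone.

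The deposited log2 values of all 758 genes were fitted with limma 3.58.1 in R 4.3.3, aCT1 against CTL, with a variance trend on mean level, two-sided p-values and Benjamini-Hochberg adjustment. A call is an adjusted p under 0.05. The fit was tested on simulated data. No scaling shift between groups was put into them, so that test does not cover the choice of scaling. Lists were described by counts and medians. Exact permutation tests were used for single values. The ratios between genes were chosen after their values were seen.

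Named were the 8 genes, SFRP1 and EGFR, ERBB2 and ESR1, PSAT1, SHMT2, CDH1 and CDH2, from each list at most 4 genes with the smallest unadjusted p under 0.05, and the 3 profiles nearest to KRT5 and KRT7. MYC, ACTR3B, KRT6B, LAMA3, SOX10, GRB7 and FGFR4 were named after their values were seen, and 1 gene that the rule names is not reported here. The 8 genes and the lists were chosen with earlier results of these data known. Gene names matched RefSeq (GRCh38.p14) as a current symbol for 749 genes and as an older one for 9. Alternatives were no variance trend, no moderation, pseudocounts of 1 and 10, median centring, quantile normalization, minimum means of 20 and 50, background subtraction, the replicate number as a block, and each sample left out.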

Additional observations from a re-analysis of the deposited data

How the results depend on the processing

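None of the 8 genes had an adjusted p under 0.05 in any of the 17 alternatives. At an unadjusted p under 0.05 their number was 1. It was 2, with KRT5 added, without moderation, with a pseudocount of 10, at a mean of at least 50 and after background subtraction, 0 with median centring, and 1 to 2 with one sample left out, with 2 reached without aCT1 replicate 2. The number of separated genes was 3. Quantile normalization left 1, median centring 0, centring on genes of at least 50 counts 2, and leaving out one sample gave 3 to 4.

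KRT7 kept its direction in all 17, from 0.020 to 0.14, and an unadjusted p under 0.05 in 16. Median centring over all genes shifted aCT1 against CTL by 0.098 and gave reversed values for KRT5 (-0.032), FOXC1 (-0.055), PHGDH (-0.087) and KRT14 (-0.084). Centring on genes of at least 50 counts, chosen after seeing the data, gave 0.063 for KRT5 and 0.12 for KRT7. KRT14 was also below 0 with a pseudocount of 10 (-0.0058) and after background subtraction (-0.18). There MIA was at -0.72, with every sample but CTL replicate 2 at the floor of that setting. With one sample left out, KRT14 ranged from -0.32 to 0.20, CDH3 from -0.035 to 0.052, MIA from -0.10 to 0.13 and PHGDH from -0.016 to 0.034. The causes were not tested.

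Over the table, 0 genes had an adjusted p under 0.05. There was 1 without a variance trend, the blood-cell gene CPA3. There was 1, SFRP1, at means of at least 20 and 50, with the replicate block and with centring on genes of at least 50. With one sample left out there were 0 to 1 (SFRP1 without CTL replicate 3), and with quantile normalization 6. The share of higher genes among those with an unadjusted p under 0.05 was 69.0%. It was 60.5% with the centring added later and 51.7% without aCT1 replicate 2. Same-numbered samples deviated with correlations of 0.078, 0.192 and -0.231 over 433 genes. The labels do not say whether these samples were handled together, and so few values cannot settle it. The replicate block left KRT7 at a limma adjusted p of 0.186 and gave 70 genes with an unadjusted p under 0.05. The planned edgeR test on the recovered counts was not run. For KRT14, KRT17 and MIA, with means near the level of the blood-cell genes, counting alone gives standard errors of 0.26 to 0.33.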
